A study of Mus musculus with 18 samples.

Results

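PD-L1 blockade in Nr2f6-deficient mice was examined in the CD3+ tumor-infiltrating lymphocytes (TILs) of 9 samples out of the 18 sequenced. These were the 6 Nr2f6-/- samples treated with anti-PD-L1 and the 3 Nr2f6-/- samples treated with IgG2b, chosen by genotype and treatment in the sample labels. All mice were on the C57BL/6 strain, carried the germline Nr2f6 deletion in every cell, and had received 500000 B16-OVA cells, a mouse melanoma line that expresses the model antigen ovalbumin. From d3 on they were given repeated i.p. injections of 0.5 mg of antibody, either anti-PD-L1 or the control antibody IgG2b, and tumors were taken at d14. T cells were pre-sorted for CD4 and CD8, combined and sorted for CD3, so each value averages both lineages. The methods give an age of 8 to 12 weeks at tumor injection. Whether 1 sample held cells of 1 mouse is not given in the sources used here, and the p-values measure the spread between these samples. The study's own sample overview used fewer anti-PD-L1 samples than the labels list, and all 6 listed were used here. The library numbers form 2 sets. Among the 9 Nr2f6-/- samples, the first set holds the 3 IgG2b samples and anti-PD-L1 replicates 1 to 3. The second holds anti-PD-L1 replicates 4 to 6 only, so it has no control of its own. The 9 samples of Nr2f6+/+ mice, treated in the same way, are used for comparison. They divide between the sets in the same way, so a covariate for the set draws on anti-PD-L1 samples of both genotypes.

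PD-1 is an inhibitory receptor of activated T cells, and its ligand PD-L1 is displayed by tumor cells and by myeloid cells of the tumor. Antibodies against PD-L1 keep the ligand from engaging the receptor, which releases signalling through the T cell receptor and CD28. NR2F6 is an orphan nuclear receptor that in T cells limits the transcription of cytokine genes at NFAT and AP-1 sites.

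The values are normalized read counts from libraries primed at the 3′ ends of mRNAs, with between 12473391 and 18362990 reads on genes per sample. A level is given as a normalized count, and a change as a log2 fold change on the scale of log2(normalized count + 1), which understates the change of low genes. The test was limma on the 11992 genes whose mean over the 18 samples reached 10, and genes with an adjusted p under 0.05 are called higher or lower. Nr2f6 had 0 reads in all 9 Nr2f6-/- samples. Markers of the sorted population were high throughout, with Cd3e, a subunit of the T cell receptor complex, between 8617 and 15541. Samples correlated across genes with r between 0.810 and 0.833 within IgG2b, between 0.804 and 0.847 within anti-PD-L1, and between 0.778 and 0.827 across the treatments.

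With anti-PD-L1, 39 of the 11992 genes changed in Nr2f6-/- TILs, which is 0.325%. Of these, 16 (0.133%) were higher, among them the chemokine Ccl5, the transcription factor Tox2 and the T cell receptor segment Traj18. The other 23 (0.192%) were lower, among them genes of myeloid cells (Lyz2, C1qb, C3ar1), chemokines of monocytes (Ccl2, Ccl6, Ccl12), MHC class II genes (H2-Aa, H2-Ab1, H2-Eb1, Cd74) and the activation-induced genes Nr4a1, Dusp1 and Fosl2. The called changes ran from 0.77 to 4.89 upward and from −1.12 to −7.69 downward. The 3 IgG2b samples decide much of this count: without any 1 of them it was between 13 and 15. With the first library set alone, 3 against 3, it was 8, of which 7 were among the 39, and all 39 kept their direction. These samples were among those that chose the 39, so the kept direction is not an independent check. With the library set as a covariate 29 genes were called, and 18 of the 39 were not, namely 4933404O12Rik, C3ar1, Ccdc137, Ccl12, Ccl2, Cd74, Cdkn1a, Fam46a, Fosl2, Ms4a6c, Msmo1, Panx1, Ppp1ca, Pyroxd1, Stxbp6, Tpd52, Tuba1c and Utf1. Of the 39 genes, 38 had no overlap between the samples of the 2 treatments, Pyroxd1 being the exception. Of all genes tested, 1.97% were higher without overlap and 3.15% were lower without overlap. The 39 were chosen for their change in these same samples, so their lack of overlap is no separate support. Some uncalled genes below also lack overlap, and these shares stand beside them. Several of them were named for a small p, so their lack of overlap is no separate support either. Across all genes the median change was −0.04, with 47.1% positive and 52.6% negative, and 1163 genes had an unadjusted p under 0.05. With 0.325% of all genes called, a short gene list would most often hold 0 called genes. A count of 0 called in a list below therefore says little about that list.

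The 5′ sequences of 3 genes are shown because these were the genes called under each of the 14 other settings tried and without each of the 9 libraries in turn. They are Lyz2, H2-Eb1 and Ipcef1, and the windows are the RefSeq promoters of build GRCm38.p6, from 250 bases before the annotated start to 50 after it, read 5′ to 3′ on the strand of the gene. Lyz2 lies at chr10:117282223-117282522 on the minus strand, H2-Eb1 at chr17:34305617-34305916 on the plus strand, and Ipcef1 at chr10:6980232-6980531 on the minus strand. The Ipcef1 window is 1 of 3 given for the gene and lies inside its annotated span, downstream of the outermost start. Capitals mark GGAAA, the core of NFAT sites, and AGGTCA, the core motif that nuclear receptors bind, on either strand.
Lyz2: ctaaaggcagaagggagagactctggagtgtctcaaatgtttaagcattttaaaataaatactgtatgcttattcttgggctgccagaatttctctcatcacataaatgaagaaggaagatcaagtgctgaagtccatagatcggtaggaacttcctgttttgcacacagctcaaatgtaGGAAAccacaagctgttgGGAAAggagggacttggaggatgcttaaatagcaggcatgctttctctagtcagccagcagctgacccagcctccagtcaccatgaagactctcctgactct
H2-Eb1: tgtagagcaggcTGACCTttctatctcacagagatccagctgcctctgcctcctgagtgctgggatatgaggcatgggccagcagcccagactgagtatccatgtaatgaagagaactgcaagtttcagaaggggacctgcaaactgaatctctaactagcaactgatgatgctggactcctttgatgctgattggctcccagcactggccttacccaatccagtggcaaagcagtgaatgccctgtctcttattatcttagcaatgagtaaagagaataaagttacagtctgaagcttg
Ipcef1: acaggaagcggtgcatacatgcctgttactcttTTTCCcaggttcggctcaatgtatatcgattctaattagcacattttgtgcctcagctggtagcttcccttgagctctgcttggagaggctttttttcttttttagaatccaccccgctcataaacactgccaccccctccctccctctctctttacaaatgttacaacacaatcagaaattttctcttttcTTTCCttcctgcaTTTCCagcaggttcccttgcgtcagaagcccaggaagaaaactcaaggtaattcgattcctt
GGAAA stood 2 times in Lyz2 and 3 times in Ipcef1, and AGGTCA 1 time in H2-Eb1, on the opposite strand. The AP-1 letters TGACTCA were in none of the 3 windows. Of 27025 RefSeq promoters, 61.3% held GGAAA, 16.04% AGGTCA and 5.17% TGACTCA, so the first is common in any window of this length. Of the 27 called genes with an entry, 19 held GGAAA, 3 AGGTCA and 2 TGACTCA. The letters describe the windows only, and reads from 3′ ends do not show which start was used.

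Lyz2, C1qb and C3ar1, markers of macrophages and monocytes, were lower with anti-PD-L1. Lyz2, which encodes lysozyme M, had 4008, 2925 and 6005 normalized counts in the 3 IgG2b samples and between 296 and 807 with anti-PD-L1 (median 686). All 6 anti-PD-L1 samples lay under the lowest control, and the change was −2.87 (standard error 0.39, limma adjusted p = 0.000318). The complement subunit C1qb had 852, 825 and 1293 with IgG2b and between 21.1 and 260.0 with anti-PD-L1 (median 117), a change of −3.27 (standard error 0.63, limma adjusted p = 0.0123). The receptor for the complement fragment C3a, C3ar1, had 225, 286 and 284 with IgG2b, whereas 4 of the 6 anti-PD-L1 samples had no read and the highest had 22.3. Its change was −6.82 (limma adjusted p = 0.0332). Of the 33 macrophage and monocyte markers listed, 30 were tested, 3 were called lower and 0 higher, and 29 had a negative change, with a median of −2.78. Among all genes tested, 0.192% were called lower and 52.6% had a negative change. The summed level of the list was between 39236 and 53662 with IgG2b and between 29686 and 36055 with anti-PD-L1. Arg1, Ms4a4a and Chil3 had no read in any anti-PD-L1 sample, and few controls had any: Arg1 and Chil3 had reads in 1 IgG2b sample each and Ms4a4a in none. Csf1r, the receptor that defines the lineage, had 199.8, 523 and 202 with IgG2b and between 0 and 155 with anti-PD-L1, and did not pass (change −3.54, limma adjusted p = 0.322). In bulk samples, fewer cells of a type and less RNA per cell cannot be told apart, and the part that myeloid cells in the sort had in any result was not tested.

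MHC class II genes, whose products present antigen to CD4+ T cells, fell together. H2-Eb1 had 3536, 3921 and 5625 with IgG2b and between 354 and 1262 with anti-PD-L1 (median 705), a change of −2.63 (standard error 0.36, limma adjusted p = 0.000318). H2-Ab1 had 3175, 3536 and 3754 with IgG2b and between 398 and 940.3 with anti-PD-L1 (median 755), a change of −2.32 (standard error 0.40, limma adjusted p = 0.00601). H2-Aa fell by 2.09 and the invariant chain Cd74 by 2.14 on the log2 scale. No anti-PD-L1 sample reached the lowest control in any of these 4 genes. They were the 4 called genes among the 14 tested dendritic cell markers, of which all 14 had a negative change (median −1.87). The shares over all genes were 0.192% called lower and 52.6% negative. The summed level of that list was between 16775 and 21419 with IgG2b and between 2562 and 6440.2 with anti-PD-L1.

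Ccl2, Ccl6 and Ccl12, chemokines that attract myeloid cells, were lower. Ccl6 had 2505, 3536 and 4733 with IgG2b and between 51.9 and 541 with anti-PD-L1 (median 430.47), a change of −3.53 (standard error 0.51, limma adjusted p = 0.000491). Ccl2, the main ligand of CCR2, had 1932, 756 and 1118 with IgG2b and between 0 and 148 with anti-PD-L1 (median 99.6), a change of −4.99 (standard error 1.03, limma adjusted p = 0.0186). Its second-set samples, the highest at 95.9, lay under those of the first set, the lowest at 103. Ccl12 had 334, 347 and 177 with IgG2b, and among the anti-PD-L1 samples only replicate 1 had reads, 5 in all. Cxcl1, a ligand of CXCR2, had 346, 30.2 and 28.1 with IgG2b and no read with anti-PD-L1. Set against a floor of 3 reads per library the mean was at least 45.6-fold lower, and at least 9.85-fold lower without IgG2b replicate 1, and it did not pass (limma adjusted p = 0.0568). Of 16 myeloid-type chemokines tested, 3 were called lower and 15 had a negative change (median −3.30), beside 0.192% and 52.6% of all genes. The other one, Ppbp, had no read in any of the 9 samples, and Pf4, like Ppbp a platelet chemokine, had 703, 268 and 280.0 with IgG2b and between 0 and 157 with anti-PD-L1 (limma adjusted p = 0.176). Of the 13 platelet and megakaryocyte markers 3 were tested and 0 called, and 8 had no read in any of the 9 samples. The summed level of that list was between 834 and 1433 with IgG2b and between 16.7 and 482 with anti-PD-L1.

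**Figure D1:**
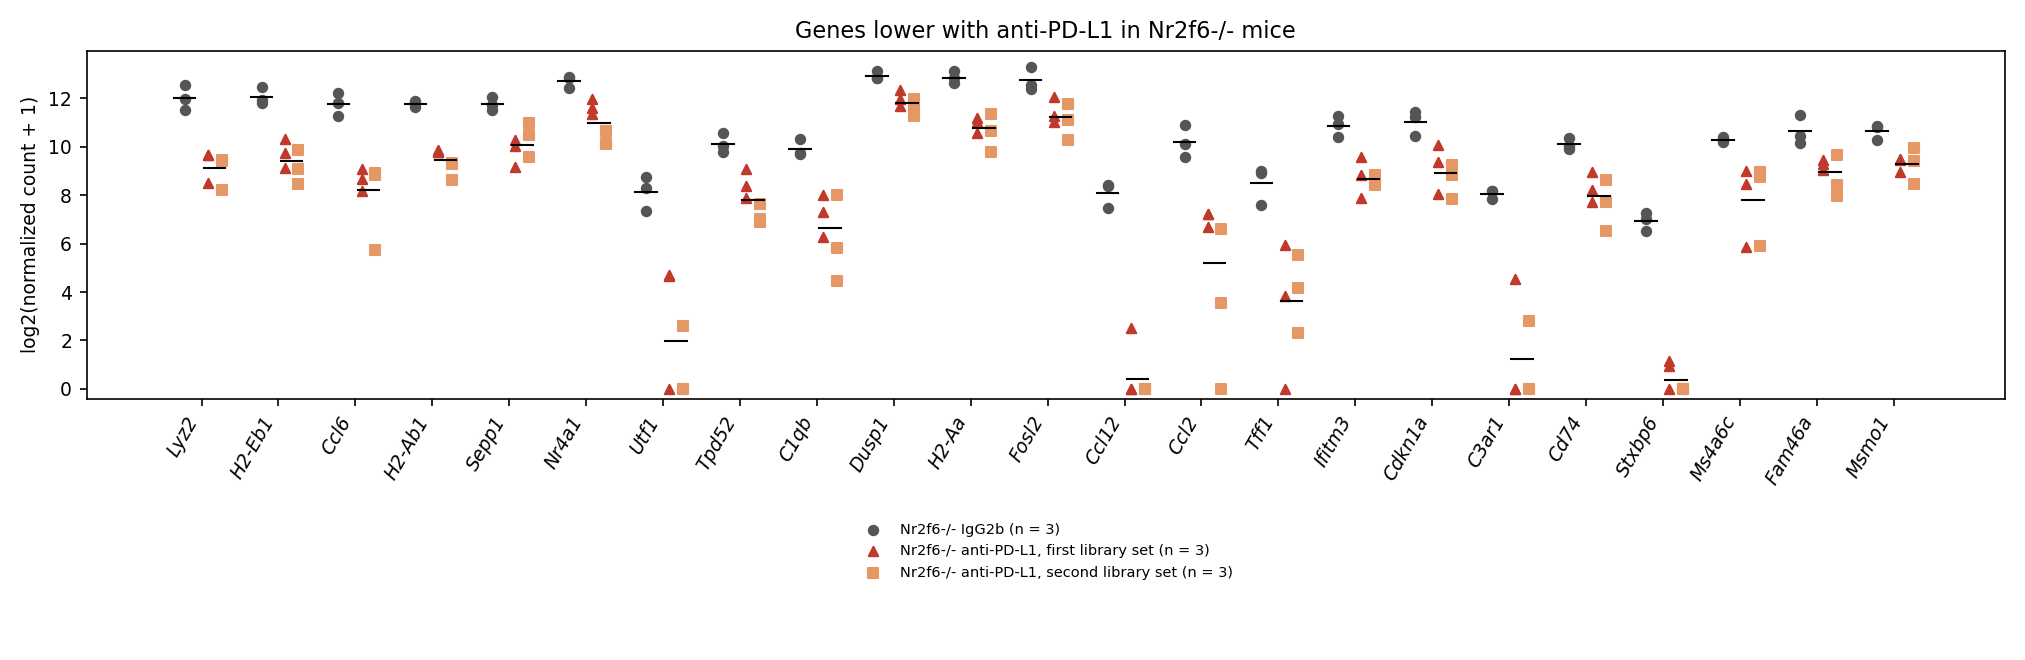
The 23 genes called lower with anti-PD-L1 in Nr2f6-/- TILs, ordered by p. Points are samples on the scale of log2(normalized count + 1), marked by treatment and library set, and bars are the means of the 3 IgG2b and the 6 anti-PD-L1 samples. No anti-PD-L1 point reaches the lowest control in any of the 23 genes, and points at 0 are samples without a read.

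Nr4a1, Dusp1 and Fosl2, which T cell receptor signalling induces within minutes to hours, were lower, and the level of Nr4a1 moved with the library set. Nr4a1, a nuclear receptor that reports recent antigen receptor signalling, had 7468, 7358 and 5549 with IgG2b, between 2588 and 3972 in the first anti-PD-L1 set and between 1095 and 1613 in the second. Both sets lay under the controls and they did not overlap each other. Its change was −1.74 (standard error 0.32, limma adjusted p = 0.0104) over all 6 samples and −1.08 in the first set alone. The difference between the 2 sets of anti-PD-L1 samples passed the test for Nr4a1 (limma adjusted p = 0.0127) and for no other of the 39 genes. With the library set as a covariate its change was −1.35 (limma adjusted p = 0.0357). Dusp1, a phosphatase of MAP kinases, had 7427, 8860.4 and 7365 with IgG2b and between 2497 and 5143 with anti-PD-L1, a change of −1.12 (standard error 0.22, limma adjusted p = 0.0146). The AP-1 subunit Fosl2 fell by 1.501 on the log2 scale (limma adjusted p = 0.0146), and did not pass with the library set as a covariate (limma adjusted p = 0.0594). Of 20 immediate-early and AP-1 genes tested, Dusp1 and Fosl2 were called lower, 0 were called higher and 15 had a negative change. Over all genes 0.192% were called lower and 52.6% had a negative change. The median of the list was −0.75 over all samples, −0.30 in the first set and −1.02 in the second. Junb, another AP-1 subunit, had 21886, 18031 and 17094 with IgG2b, between 13878 and 16558 in the first set and between 3071 and 7059 in the second, and did not pass over all 6 samples (limma adjusted p = 0.295). The difference between its sets passed the test (limma adjusted p = 0.0100), as did the second set against IgG2b (limma adjusted p = 0.00302). As the second set has no controls, a difference between sets and one between animals cannot be told apart.

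The remaining lower genes were not members of the gene lists used here, which does not set them apart from genes of myeloid cells. Cdkn1a, the cell cycle inhibitor p21, had 2762, 2431 and 1393 with IgG2b and between 230.3 and 1082 with anti-PD-L1 (median 533), a change of −2.13 (limma adjusted p = 0.0317). Sepp1, the plasma selenoprotein P, had 2934, 3419 and 4312 with IgG2b and between 571 and 2020.0 with anti-PD-L1 (median 1150.4), a change of −1.69 (limma adjusted p = 0.00954). Ifitm3, an interferon-induced membrane protein that blocks viral entry, had 1359, 1977 and 2473 with IgG2b and between 234 and 762 with anti-PD-L1, a change of −2.19 (limma adjusted p = 0.0208). Of the 33 interferon-induced genes listed, 0 were called, 16 had a positive and 17 a negative change, beside 47.1% and 52.6% of all genes. Msmo1, an enzyme of cholesterol synthesis, fell by 1.36 (limma adjusted p = 0.0471), Tpd52 by 2.32, Ms4a6c by 2.47 and Fam46a by 1.66 on the log2 scale. Utf1, Tff1 and Stxbp6 had few reads with anti-PD-L1. Utf1 had 315, 429 and 162 with IgG2b and between 0 and 25.1 with anti-PD-L1, and Tff1, a secreted peptide of mucous epithelia, had 511, 485 and 190.5 against 0 to 60.8. Stxbp6 had 130.3, 91.4 and 154 with IgG2b and 2 reads in all over the 6 anti-PD-L1 samples, a ratio of 383 (95% exact interval 105 to 3173, counting error only). It passed the filter through these IgG2b samples, as its means in Nr2f6+/+ mice were 21.5 with IgG2b and 2.72 with anti-PD-L1. The ratio therefore adds no support to its call, which was lost without 8 of the 9 libraries in turn and by edgeR and DESeq2.

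Among the higher genes, Ipcef1 and Ccl5 stood at high levels in every sample. Ipcef1, which binds a guanine exchange factor of ARF6, had 3516, 3399.8 and 3582 with IgG2b and between 6480 and 7687 with anti-PD-L1 (median 7397), a change of 1.03 (standard error 0.18, limma adjusted p = 0.00601). The controls spread far less than their distance to the lowest treated sample. As Ipcef1 was chosen from these same values, that distance is no separate support. Ccl5, a chemokine made by memory and effector CD8+ T cells, had 48717, 36092 and 58105 with IgG2b and between 108648 and 157300 with anti-PD-L1 (median 126870), a change of 1.46 (standard error 0.27, limma adjusted p = 0.0109). The other T cell chemokines listed were not called. Ccl4 had 7108, 6044 and 4201 with IgG2b and between 7469 and 19414 with anti-PD-L1 without overlap (change 0.98, limma adjusted p = 0.253), and Ccl3 had 11978, 7325 and 11594 against 5608 to 12957 (median 11087). Xcl1, which attracts cross-presenting dendritic cells, had 3112, 2621 and 3697 against 1133 to 3812 (limma adjusted p = 0.341).

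Tox2 and Traj18 rose from low levels. Tox2, a relative of the exhaustion factor Tox, had 326, 164 and 326 with IgG2b and between 868 and 1730.0 with anti-PD-L1 (median 1283), a change of 2.30 (standard error 0.45, limma adjusted p = 0.0134). The lowest treated sample was above the highest control by more than the whole range of the controls. Tox2 was chosen from these same values, so the gap is no separate support. Tox itself had 6493, 6711 and 4515 with IgG2b and between 7339 and 8146 with anti-PD-L1, without overlap, and was not called (change 0.39, limma adjusted p = 0.534). Traj18, the joining segment of the receptor alpha chain that invariant NKT cells use, had 55.2, 213 and 121 with IgG2b and between 259 and 1085 with anti-PD-L1 (median 655), a change of 2.50 (standard error 0.48, limma adjusted p = 0.0124). In Nr2f6+/+ mice the means with IgG2b and anti-PD-L1 were 523 and 775 for Traj18, and 270 and 528 for Tox2. Zbtb16, which encodes the NKT lineage factor PLZF and was chosen after its values were seen, had no read in 8 of the 9 samples and 1 read in the other. The share of NKT cells was not tested. Reads on a joining segment can also stem from germline transcripts or other rearrangements, which the counts do not separate.

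The other higher genes have varied known roles. Pstpip1, an adaptor that binds the phosphatase PTPN12 and actin regulators, had 1022, 1007 and 1415 with IgG2b and between 2248 and 3815 with anti-PD-L1, a change of 1.31 (standard error 0.23, limma adjusted p = 0.00752). Tbc1d10c, an inhibitor of Ras and calcineurin, rose by 1.17, and Ppp1ca, a catalytic subunit of protein phosphatase 1, by 0.82 on the log2 scale. Ctsd, a lysosomal protease, rose from 8864, 7871 and 8344 to between 12498 and 16435 (change 0.78, limma adjusted p = 0.0146). Panx1, a channel that releases ATP, rose by 1.18, Nab1, a corepressor of EGR factors, by 1.01, Perp, a p53 target at desmosomes, by 2.60, and the tubulin Tuba1c by 0.77. Ddx28, an RNA helicase, had 420.5, 346 and 822 with IgG2b and between 1246 and 2273 with anti-PD-L1 (change 1.82, limma adjusted p = 0.00835). The next genes had few reads in the Nr2f6-/- controls. 4933404O12Rik had 1.90, 7.54 and 14.6 with IgG2b and between 35.6 and 468 with anti-PD-L1, Ccdc137 had 5.71, 53.7 and 9.37 against 70.2 to 422, and Pyroxd1 had 59.9, 0 and 11.4 against 35.98 to 629, with overlap. In Nr2f6+/+ mice the means with IgG2b and anti-PD-L1 were 272 and 169 for 4933404O12Rik, 173 and 240 for Ccdc137, and 189 and 177 for Pyroxd1. Perp had means of 411 and 298 there, and Ddx28 of 1186 and 1388. For each of these genes the Nr2f6-/- IgG2b mean was the lowest of the group means, and the reason was not tested. The counting did not state a strand setting, so reads of overlapping genes could not be separated.

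**Figure D2:**
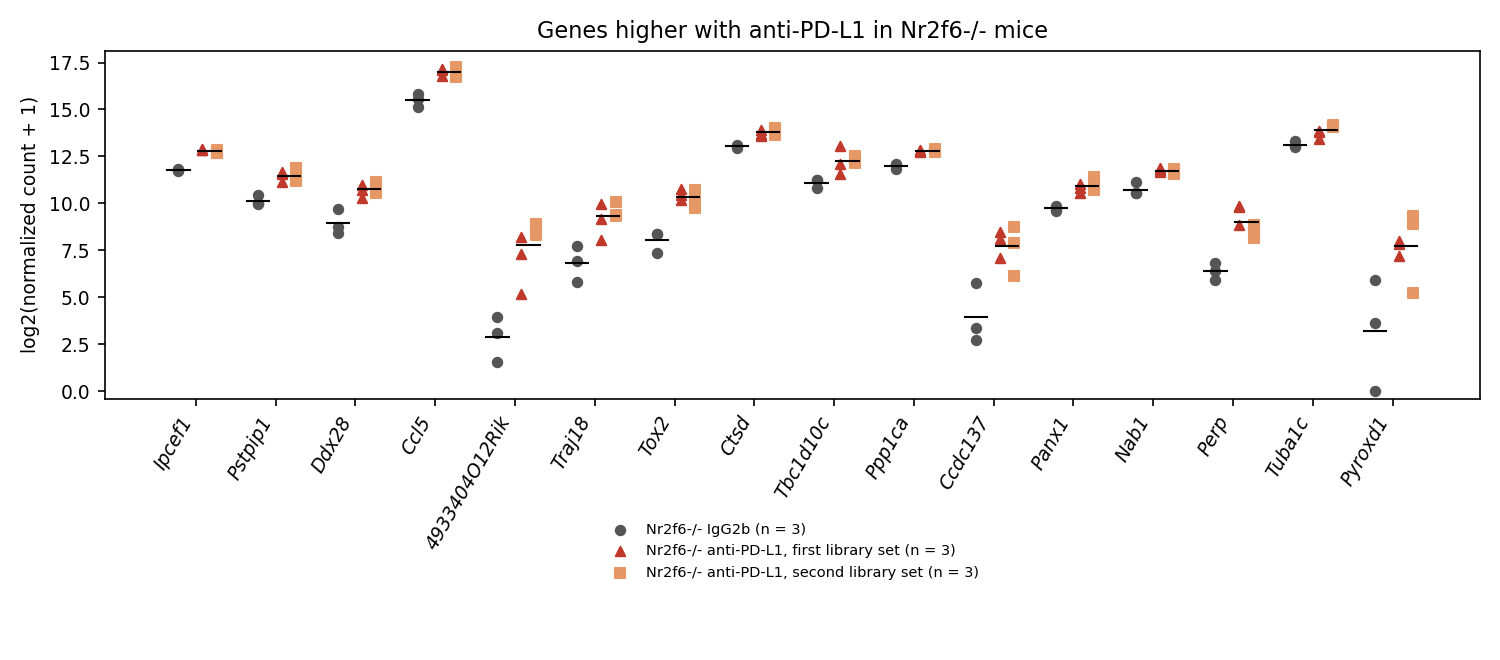
The 16 genes called higher with anti-PD-L1 in Nr2f6-/- TILs, ordered by p. Points are samples on the scale of log2(normalized count + 1), marked by treatment and library set, and bars are the means of the 3 IgG2b and the 6 anti-PD-L1 samples. The 2 treatments overlap in Pyroxd1 only, and both anti-PD-L1 sets lie above the control mean for each gene.

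The targeted pathway itself showed no called gene. Pdcd1, which encodes PD-1, had 5338, 8034 and 8145 with IgG2b and between 8218 and 11653 with anti-PD-L1 (median 9694), without overlap (change 0.48, standard error 0.20, limma adjusted p = 0.394). Cd274, which encodes PD-L1, had 795, 656 and 367 with IgG2b and between 95.4 and 432 with anti-PD-L1 (limma adjusted p = 0.574), and Pdcd1lg2, the second ligand of PD-1, had 232, 440.1 and 499.6 against 175 to 348 (limma adjusted p = 0.750). The groups overlapped for both ligands. Ctla4 had between 1921 and 2539 with IgG2b and between 1008 and 2928 with anti-PD-L1, Lag3 between 22.8 and 131 and between 30.1 and 285, and Havcr2, which encodes TIM-3, between 1586 and 2063 and between 2026 and 3144. Cd160 had 770, 314 and 630 with IgG2b and between 869 and 1606 with anti-PD-L1, without overlap (change 1.11, limma adjusted p = 0.176). Of the 18 inhibitory receptors and ligands tested 0 were called and 11 had a positive change, with a median of 0.34. Of all genes tested, 0.325% were called, 47.1% had a positive change and 1.97% were higher without overlap.

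The effector genes of T cells named next did not pass either. Ifng had 3620, 3934 and 3900.1 with IgG2b and between 3498 and 8672 with anti-PD-L1 (median 4218), a change of 0.35 (standard error 0.25, limma adjusted p = 0.709). Tnf had 415, 445 and 453 against 68.4 to 612, and Il2 195, 62.2 and 323 against 144 to 313, both with overlap. Of the granule genes, Gzmb had between 13825 and 22816 with IgG2b and between 13066 and 23685 with anti-PD-L1. Prf1, the pore-forming perforin, had 285, 237 and 380 with IgG2b and between 349 and 1741 with anti-PD-L1 (change 1.26, limma adjusted p = 0.326). Nkg7, a granule membrane protein, had 30222, 29631 and 34736 with IgG2b and between 46406 and 62649 with anti-PD-L1, and Gzmk had 1452, 982 and 1204 against 2227 to 3785. The groups did not overlap for Nkg7 and Gzmk, with limma adjusted p-values of 0.153 and 0.266, and 1.97% of all genes were higher without overlap. Of 18 cytotoxic effector genes 0 were called and 12 had a positive change (median 0.19), beside 0.325% called and 47.1% positive among all genes.

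Genes of lineage and differentiation were measured in the same samples. Cd8a had 8129, 12597 and 10395 with IgG2b and between 11329 and 17120 with anti-PD-L1, and Cd4 had 7530.3, 2767 and 4533 against 2026 to 5857. The log2 ratio of Cd8a to Cd4 was 1.16 ± 1.04 (SD, n = 3) with IgG2b and 1.81 ± 0.73 (SD, n = 6) with anti-PD-L1, which did not differ beyond the spread (exact permutation test, two-sided, p = 0.321, where the smallest possible is 0.0119). Cd8b1 had 13967, 12819 and 14618 with IgG2b and between 17059 and 25918 with anti-PD-L1, and Lat, an adaptor of receptor signalling, 7413, 4710 and 5825 against 7559 to 12594, both without overlap and not called. Of the 19 T cell identity genes 0 were called and 16 had a positive change, with a median of 0.21. Among all genes 0.325% were called, 47.1% had a positive change and 1.97% were higher without overlap. Tcf7, which marks stem-like T cells, had 2173, 2200.3 and 2977 with IgG2b and between 1214 and 1694 with anti-PD-L1, without overlap (change −0.66, limma adjusted p = 0.366). Klf2, a factor of naive and recirculating cells, had 1609, 1730.1 and 2029.7 against 217 to 993, without overlap (limma adjusted p = 0.250). In this list of 15 genes 0 were called and 10 had a negative change (median −0.66). Among all genes 52.6% had a negative change and 3.15% were lower without overlap.

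Foxp3, the factor of regulatory T cells, had 836, 518 and 791 with IgG2b and between 184 and 910.2 with anti-PD-L1 (limma adjusted p = 0.750), and 0 of 14 regulatory T cell genes were called. Mki67 had 588, 1005 and 1204 with IgG2b and between 134 and 800.1 with anti-PD-L1, whereas Birc5, also a mitotic gene, had 4557, 6142 and 4827 against 6518 to 9151, and neither passed. Of 33 proliferation genes 0 were called, 21 had a positive and 12 a negative change, beside 47.1% and 52.6% of all genes. The common leukocyte gene Ptprc had between 9208 and 13164 with IgG2b and between 7312 and 13107 with anti-PD-L1. In the lists of B cell, NK cell, neutrophil, erythroid, melanocyte and fibroblast or endothelial markers 0 genes were called. The same held for the costimulatory receptors, T cell cytokines, chemokine receptors, glycolysis genes, heat shock and dissociation genes and mitochondrially encoded mRNAs, with list medians between −0.75 and 0.27. Among 19 exhaustion and effector transcription factors, Tox2 was called higher and Nr4a1 lower, and among 5 T cell chemokines Ccl5 was called. The share called over all genes was 0.325%.

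**Figure D3:**
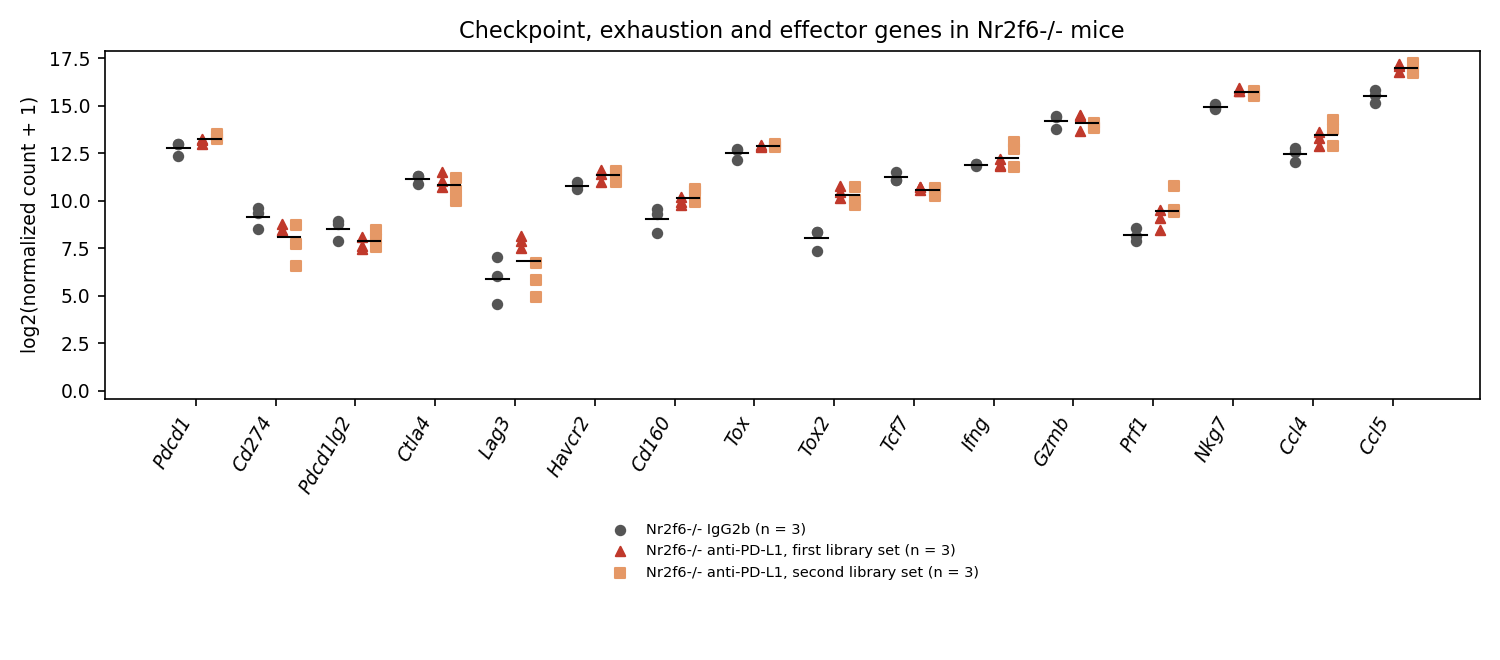
Checkpoint, exhaustion and effector genes in Nr2f6-/- TILs. Points are samples on the scale of log2(normalized count + 1), marked by treatment and library set, and bars are the means of the 3 IgG2b and the 6 anti-PD-L1 samples. Tox2 and Ccl5 are the called genes among those plotted.

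**Figure D4:**
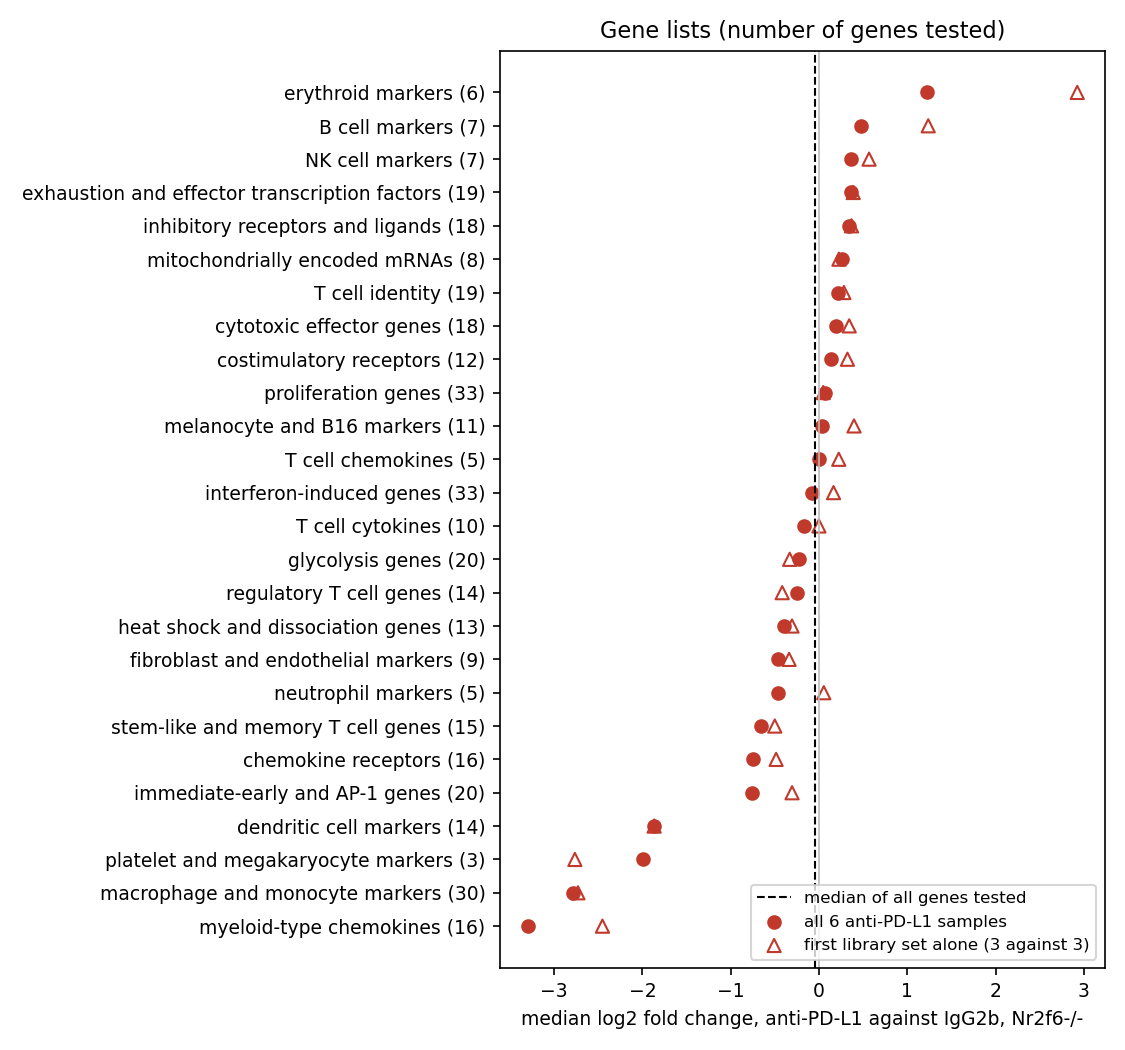
The median log2 fold change of each of the 26 gene lists, anti-PD-L1 against IgG2b in Nr2f6-/- TILs, with the number of genes tested. Filled circles are all 6 anti-PD-L1 samples, open triangles the first library set alone, and the dashed line is the median over all genes (−0.04). The myeloid-type chemokines (−3.30), the macrophage and monocyte markers (−2.78), the 3 platelet markers (−1.99) and the dendritic cell markers (−1.87) lie furthest to the left.

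Most of the lower genes had a negative change in Nr2f6+/+ TILs as well, whose 9 samples entered the filter and the shared estimate of the spread but not the contrast that chose the genes. Of the 23 genes, 21 had a negative change with anti-PD-L1 in Nr2f6+/+ mice and 9 were called lower there, against 29 genes called among all tested, which is 0.242% and all of them lower. The 9 were Lyz2, H2-Eb1, Ccl6, H2-Ab1, Sepp1, Nr4a1, Dusp1, H2-Aa and Fosl2. Lyz2 changed by −2.83 (standard error 0.39) in Nr2f6+/+ and by −2.87 in Nr2f6-/- TILs, Ccl6 by −3.42 and −3.53, and Nr4a1 by −1.74 in both. By list, the median change in Nr2f6+/+ TILs was −4.00 for the myeloid-type chemokines and −3.20 for the macrophage and monocyte markers. Of the 16 higher genes 0 were called in Nr2f6+/+ mice, where 0% of all genes were higher, and 13 had a positive change with a median of 0.19 over the 16. Ccl5 changed by 0.18 (standard error 0.27) in Nr2f6+/+ against 1.46 in Nr2f6-/- TILs, Ipcef1 by 0.12 against 1.03 and Tox2 by 0.84 against 2.30.

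The difference of the anti-PD-L1 effect between the genotypes was tested itself. It was called for 0 of the 11992 genes (0%, smallest limma adjusted p = 0.330), with 596 at an unadjusted p under 0.05, 0 by edgeR and 76 by DESeq2. The unadjusted p of this difference was under 0.05 for 14 of the 16 higher and 6 of the 23 lower genes. These genes were chosen for their change in the same Nr2f6-/- samples, so these counts do not test the difference independently. Among the 39 genes the smallest were those of Msmo1, lower in Nr2f6-/- and at 0.67 in Nr2f6+/+ mice, 4933404O12Rik, Tff1 and Panx1, with an adjusted p of 0.330 for each by limma.

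**Figure D5:**
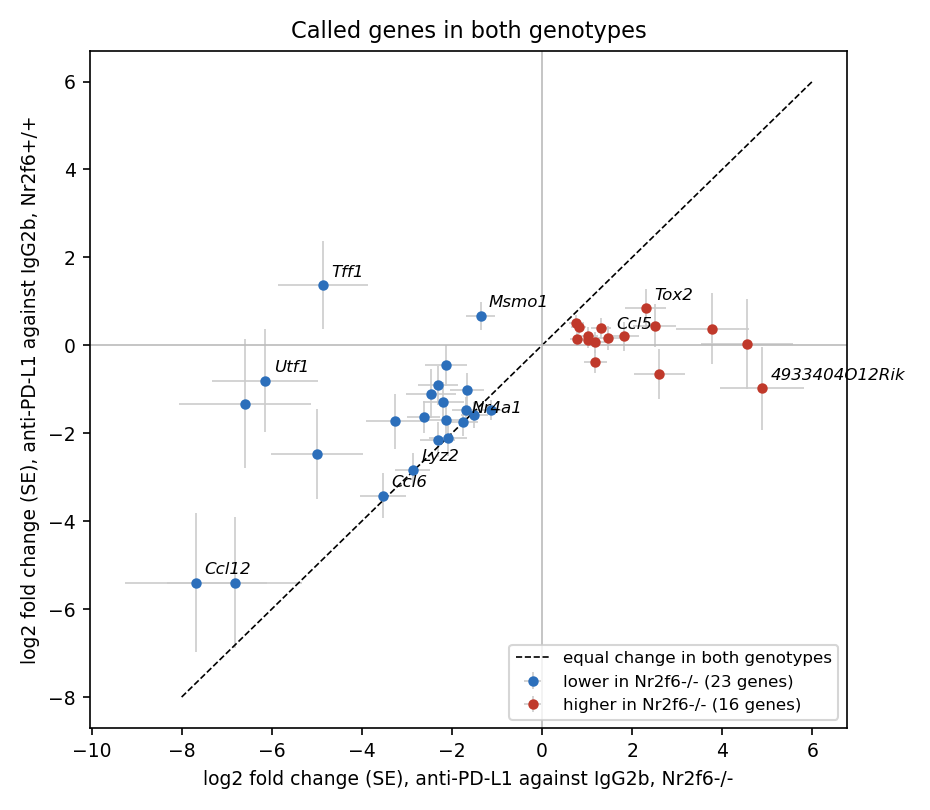
Log2 fold changes of the 39 called genes with anti-PD-L1 in Nr2f6-/- (x axis, which chose the genes) and Nr2f6+/+ TILs (y axis), with standard errors. On the dashed line the change is equal in both genotypes. Lyz2, Ccl6 and Nr4a1 lie close to the line, and the higher genes lie below it, between −0.98 and 0.84 on the y axis.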

How the data were processed

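Trimming by the authors used Cutadapt and Trimmomatic, and reads were mapped to mm10 with STAR and Bowtie2 and counted per gene with HTSeq. The deposited values are a signal: each gene's reads over a size factor, 1 for each library, and 100% of the values came out as whole reads when that scaling was undone (tolerance 0.001). Annotation and strand setting are not given in the sources used here. Depth limits detection to 3 reads, between 2.60 and 3.64 normalized counts in the Nr2f6-/- samples, which covers counting error only. Genes with a mean of at least 10 over the 18 samples were kept, 11992 of 37236. The main test was limma 3.58.1 (R 4.3.3) with eBayes and its trend option on log2(value + 1), with 4 group means over 18 samples and Benjamini-Hochberg adjustment at 0.05, two-sided. Alternatives were other pseudocounts, filters and scalings, each library set alone or fitted as a covariate, blocking by replicate, sample weights, edgeR 4.0.16, DESeq2 1.42.0 and leaving out each replicate. The tests were checked on simulated data with known changes, where DESeq2 made many more false calls than limma or edgeR. The simulated counts were drawn with the spread that edgeR estimated, which need not suit DESeq2, the study's own test. The larger counts of DESeq2 are given with both limits. The genes named were Nr2f6, each called gene, a fixed set of checkpoint, T cell and myeloid genes, and up to 4 genes per list with the smallest p. Tnfrsf9, Cxcr6, Nr4a3, Nfkbia, Apoe and Zbtb16 were also chosen after their values were seen. The samples and gene lists were chosen with earlier results of these data known. The 39 called genes were all matched to RefSeq.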

Additional observations from a re-analysis of the deposited data

Results flagged for a closer look

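Among 79 results examined for a sample far from the other 5 of the 6 Nr2f6-/- anti-PD-L1 samples, 4 were found. This is about the share that chance gives, 1 in 20, a share that is only approximate for counts with zeros. The highest Ccl12 sample, replicate 1, had 4.65 normalized counts. The other 5 had none, so any read would have set this flag. The highest C3ar1 sample was also replicate 1, at 22.3, with the next at 6.01. For Prf1 it was replicate 4 at 1741, with the next at 744, and for Ccl3 the lowest sample was replicate 6 at 5608, with the next at 10525. Leaving out these replicates left Ccl12 and C3ar1 called and left Prf1 and Ccl3 uncalled. Without any 1 of the IgG2b samples, neither Ccl12 nor C3ar1 was called. C3ar1 was also lost without anti-PD-L1 replicate 2, 3, 4 or 5.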

How the results depend on the processing

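The count of 39 genes (16 higher, 23 lower) was 17 (7 and 10) without a filter on low values, 19 (6 and 13) with only the groups compared, 8 (2 and 6) with the first library set alone and 109 (45 and 64) with the second set of anti-PD-L1 alone. It was 230 (143 and 87) by DESeq2, the study's own test, which overcalled on data simulated with the spread that edgeR estimated. By the unadjusted p it was 1163 (521 and 642). With sample weights 37 genes were lower. Leaving out a replicate gave between 13 and 41 genes, between 7 and 15 higher and between 6 and 26 lower, with the lowest counts without IgG2b replicate 1 (14), 2 (15) or 3 (13). The replicate numbers do not pair the samples (correlations of same-numbered samples between −0.01 and 0.02), and with the replicate block 27 genes were called (10 and 17), 17 of them among the 39. The genotype difference was called for 5 genes without a filter, 76 by DESeq2 and 596 by the unadjusted p, and for 0 under the other settings it was run with and without each replicate. It was not run with only the groups compared or with the second set alone. None of the 39 genes changed direction, though every setting used samples that had chosen them. Among uncalled genes, Lag3 (−0.039) and Ccl3 (−0.22) reversed with the second set alone, Gzmb (0.016) and Ptprc (0.078) with the first set alone and Ccl3 (−0.029) with scaling to the same total. Without 1 replicate, the change of Cd4 ran from −0.66 to 0.063, of Il2 from −0.24 to 0.94, of Gzmb from −0.35 to 0.011, of Ptprc from −0.25 to 0.011 and of Ccl3 from −0.22 to 0.17. Between the treatments, the ratio of Cd8a to Cd4 differed by 0.65 (log2), and by between 0.12 and 1.16 without 1 replicate. With 3 controls, differences under the spread of these samples were not detectable. The causes were not tested.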

Other observations

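Some genes near the threshold, chosen after their values were seen, were not called over all 6 anti-PD-L1 samples. The costimulatory receptor Tnfrsf9 (4-1BB) had 4245, 4806 and 4837 normalized counts with IgG2b and between 1890.2 and 3650 with anti-PD-L1 (change −0.85, limma adjusted p = 0.103), while in Nr2f6+/+ mice its change was 0.24. The NF-kB inhibitor Nfkbia had 26133, 19487 and 17246 against 5339 to 17038 (change −1.01, limma adjusted p = 0.0881). The residency receptor Cxcr6 had 17916, 18218 and 21153 against 26857 to 41137 (change 0.76, limma adjusted p = 0.110). Nr4a3 changed by −1.63 (limma adjusted p = 0.103), Bhlhe40 by −1.07 (limma adjusted p = 0.152), and Apoe, a lipid carrier of macrophages, by −4.92 (limma adjusted p = 0.0510). Arg1 had 265 normalized counts in IgG2b replicate 1 and no read in the other 8 Nr2f6-/- samples. Ube2c, a mitotic gene, changed by 0.92 (limma adjusted p = 0.164).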
